A study of Mus musculus with 12 samples.

Results

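Oxidative phosphorylation was examined through the nuclear genes that encode its subunits in the striatum and cortex of R6/2 mice, a model of Huntington's disease (HD), and of their wild-type (WT) littermates. Members were all genes whose symbol begins with Ndufa, Ndufb, Ndufc, Ndufs, Ndufv, Uqcr, Atp5 or Cox4 to Cox8, the genes Sdha, Sdhb, Sdhc and Sdhd, and the regulators Ppargc1a and Tfam. This rule selected 94 of the 23282 genes listed. Sorted by symbol, they comprised 38 genes of complex I, 4 of complex II, 8 of complex III, 18 of complex IV, 15 of complex V, 7 assembly factors of complex I whose symbols begin with Ndufaf, 2 other genes with an Atp5 symbol (Atp5s and Atp5sl), and the 2 regulators. Counts, medians and sums of a complex refer to these symbol groups, so Ndufa4 and Ndufa4l2 are counted with complex I and Cox7a2l with complex IV.

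R6/2 mice carry a fragment of the human HTT gene, the exon with the expanded CAG repeat, under the human HTT promoter in addition to both mouse Htt alleles. Post-symptomatic HD mice were 13 weeks old and pre-symptomatic HD mice 8 weeks old, and each group had 2 libraries of striatum and 2 of cortex. WT littermates had 1 library per region at each of these ages, so no test against WT mice includes the spread among WT littermates of one age within a region. Libraries were made from total RNA of whole tissue with the Lexogen QuantSeq kit, which reads the 3′ end of polyadenylated transcripts, so that a level is not scaled to gene length. No source used here says whether each library came from 1 mouse, whether mice were pooled, or whether the striatum and cortex of the same replicate number came from the same mouse, and the p-values measure only the spread between these libraries.

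The mitochondrial respiratory chain passes electrons from NADH through complex I, or from succinate through complex II, to complex III, cytochrome c and complex IV, where oxygen is reduced. Complexes I, III and IV pump protons, and complex V, the ATP synthase, uses the gradient to make ATP. Most subunits are nuclear genes, often with binding sites for NRF1 and for the ETS-family factor GABPA in their promoters, and the energy demand of neurons rests largely on this pathway. The subunits encoded by mitochondrial DNA were not analysed here.

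The tables held between 8814386 and 12091201 counts per library. Members took between 1.41% and 1.92% of them. The share of Rn45s, the precursor of ribosomal RNA, ran from 10.5% to 15.2% in HD libraries and from 4.32% to 5.62% in WT libraries. Levels are given as CPM, the counts of a gene relative to the library total, scaled by the TMM method of edgeR, and "called" means an adjusted p-value under 0.05 from edgeR's quasi-likelihood test, adjusted over all genes tested. Labelled tissue was checked against markers. The summed level of 8 striatal neuron genes was between 1326 and 7438 CPM in striatum and between 115 and 359.6 CPM in cortex, and the 2 lowest striatal sums were those of post-symptomatic HD mice (1326 and 1351 CPM). Of these genes, Drd2 was at 0.0 to 0.353 CPM in all libraries. Replicate 2 of pre-symptomatic HD striatum stood apart, with 2145 CPM against 6902 CPM in replicate 1 for those genes, 19143 against 3049 CPM for 6 oligodendrocyte genes, and 729.6 against 35.7 CPM for the thalamic genes Tcf7l2 and Prkcd. Replicate 2 of post-symptomatic HD cortex held 3009 CPM of 4 choroid plexus genes, against 67.8 CPM in replicate 1. In whole tissue, fewer cells of a type and less RNA per cell cannot be told apart. Replicate 1 of each HD group was male and replicate 2 female by Xist and Y-linked genes, and the WT mice were female at 13 weeks and male at 8 weeks.

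Levels of members spread widely, with 60 at a mean of at least 100 CPM over the 12 libraries, 25 between 10 and 100 CPM and 9 under 10 CPM. The highest were Atp5g3, which encodes subunit c of the proton-conducting ring of complex V, at a mean of 948 CPM, and Cox8a, a small subunit of complex IV, at 816 CPM. In the other complexes the highest were Uqcrh, the hinge subunit of complex III, at 416 CPM, Ndufa5 of complex I at 368 CPM and Sdhb, the iron-sulfur subunit of complex II, at 292 CPM. Of the low genes, Cox8c had 1 count in 1 library and none in the other 11, where a count of 0 allows up to 0.248 to 0.327 CPM (3 counts of each total, for counting error only). A heatmap of 84 genes with a mean of at least 10 CPM shows that most rows changed little and that Cox5b, Ndufa12, Cox6a2, Sdhd and Ppargc1a varied most.

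**Figure D1:**
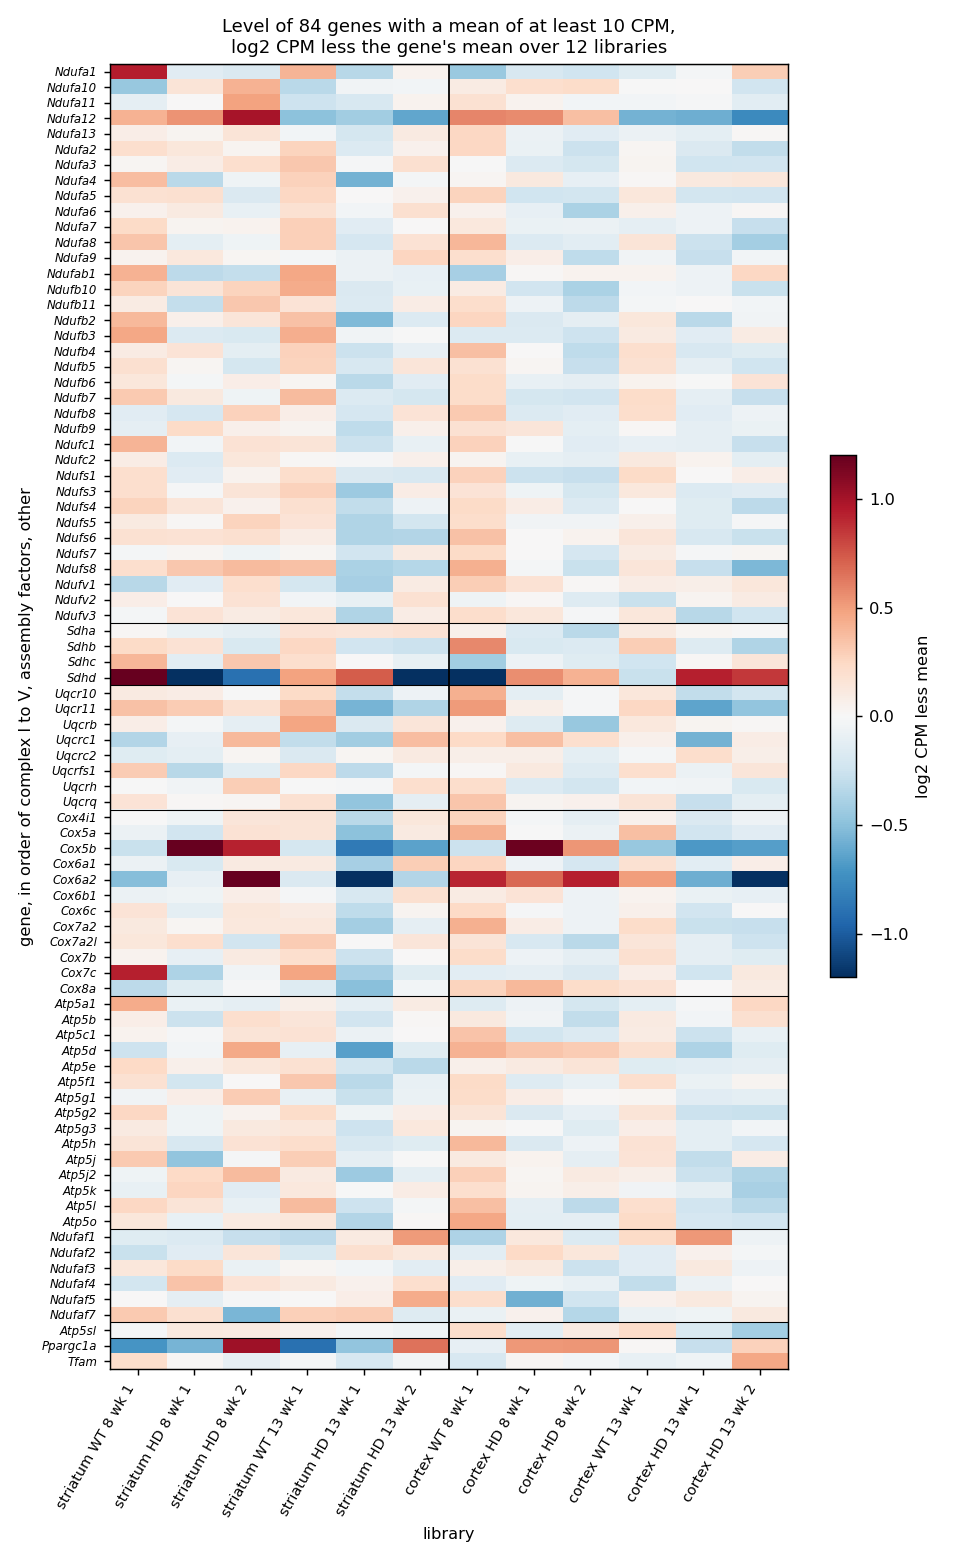
Each row is 1 gene, ordered by complex, and each column 1 library, with striatum on the left and cortex on the right. Colour gives the log2 CPM of a gene less its mean over the 12 libraries, capped at the ends of the scale. Cox5b is high in the 4 pre-symptomatic HD libraries and Ndufa12 is high in all 8-week libraries.

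Promoters were shown for 3 of the genes on which the comparisons turn, as the bases that lie before the annotated gene on its own strand, 5′ to 3′, from RefSeq windows on GRCm38.p6. Capitals mark the letters CCGGAAG or their reverse complement, the core of an ETS site. Cox5b (chr1:36691237-36691448, plus strand) is shown because it had the smallest p among members between the HD ages. Uqcr11 (chr10:80406831-80407071, minus strand) and Atp5l (chr9:44920743-44920992, minus strand) are shown because, of the 4 members that were lower in post-symptomatic HD than in WT mice, they are those with such a core before the annotated gene. The stretches of Ndufs8 and Ndufb7 held none there and are not shown. Their whole windows, which reach past the start and are described below, did hold such a core.
Cox5b: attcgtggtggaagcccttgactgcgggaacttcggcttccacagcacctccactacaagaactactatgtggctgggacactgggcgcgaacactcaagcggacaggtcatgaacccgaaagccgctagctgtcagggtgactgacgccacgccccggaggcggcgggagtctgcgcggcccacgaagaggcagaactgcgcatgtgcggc
Uqcr11: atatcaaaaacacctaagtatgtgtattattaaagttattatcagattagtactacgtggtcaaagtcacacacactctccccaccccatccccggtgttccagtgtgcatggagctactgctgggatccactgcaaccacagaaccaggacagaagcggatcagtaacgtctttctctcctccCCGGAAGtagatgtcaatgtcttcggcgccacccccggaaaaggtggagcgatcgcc
Atp5l: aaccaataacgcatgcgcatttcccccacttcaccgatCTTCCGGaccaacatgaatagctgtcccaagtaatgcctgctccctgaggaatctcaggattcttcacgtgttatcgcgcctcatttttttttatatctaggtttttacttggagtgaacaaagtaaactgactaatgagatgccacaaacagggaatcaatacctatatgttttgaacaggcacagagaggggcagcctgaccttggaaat
The Uqcr11 and Atp5l stretches each hold 1 such core, and the Cox5b stretch holds none. Over the whole window of 250 bases before and 50 bases after the RefSeq start, searched on both strands, CCGGAAG was found in 18 of the 78 members matched to a window (23.1%) and in 9.9% of 27025 genes. The NRF1 letters, GCGC followed by any base and then TGCGC, were found in 19 of 78 members (24.4%) against 5.2% of genes, and the YY1 letters AAGATGG in 12 of 78 members (15.4%) against 7.3%. Among complexes, the NRF1 letters were in 6 of 14 windows of complex V genes, 7 of 33 of complex I genes and 1 of 13 of complex IV genes. These are matches of letters in a window and not measured binding.

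The first comparison asked how members changed in HD mice between the pre-symptomatic and the post-symptomatic age, in a fit of the 8 HD libraries that included a term for region. Cox5b, Ndufa12, Uqcr11, Atp5j2 and Cox6a2, of complexes I, III, IV and V, were lower after symptom onset and no member was higher. These 5 were among 92 members tested, beside 6.45% of all 13944 genes tested that were called, 4.53% called lower and 1.93% called higher. The log2 difference was below 0 in 58 of 92 members and in 49.7% of all genes, and its median was -0.07 for members against 0.00 for all genes. It was -0.08 for complex I, -0.08 for complex III, -0.11 for complex IV and -0.10 for complex V, and 0.14 and 0.21 for complex II and the complex I assembly factors. Ages did not overlap in either region for 16 members that were lower, against 11.3% of all genes, and for 3 that were higher, against 9.35%. With library size alone as the scale, the median of all genes itself shifted to 0.21 and that of members to 0.13, so that members lay 0.08 below the median of all genes, against 0.07 with TMM. On that scale 4 members were called lower and 3 higher. The higher ones were Ndufb3 of complex I (0.39), Sdha, the flavoprotein of complex II (0.47), and the assembly factor Ndufaf5 (0.62). The share of all genes called on that scale is not given here. General neuron markers were lower after onset too, with 4 of 6 called lower and none higher (median -0.74). So were astrocyte markers (median -0.62, 5 of 6 below 0, 1 called lower) and striatal neuron markers (7 tested, median -1.11, 3 called lower). Oligodendrocyte markers had a median of -0.57 (6 of 6 below 0, none called). Their sum in HD striatum was 3049 and 19143 CPM before and 4066 and 6781 CPM after onset. The highest value was that of the library that stood apart. In HD cortex the sum was 2173 and 2473 CPM before and 2240 and 2567 CPM after. Endothelial markers had a median of 0.13. The part of these cell types in the levels of members was not tested.

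Cox5b, a zinc-binding subunit of complex IV, had the smallest p among members. Striatal levels of 309 and 220.2 CPM before symptom onset stood against 64.5 and 74.7 CPM afterwards. Cortical levels were 263 and 167 CPM before and 71.9 and 73.6 CPM after onset. The 2 ages did not overlap in either region, and the libraries before onset were spread more widely than those after it. The level fell 3.32-fold, a log2 difference of -1.73 (standard error 0.17, adjusted p = 0.00153, edgeR). Permuting the 2 stages inside each region gave an exact two-sided permutation p of 0.0556, which is as small as 36 arrangements can give, and p = 0.333 when both regions of a replicate number were moved together, the smallest of 6 arrangements. Cox5b was picked for its difference and its ages did not overlap, so these permutation values only restate that separation. By region, the log2 difference was -1.93 in striatum (standard error 0.25, adjusted p = 0.0226, edgeR) and -1.57 in cortex (standard error 0.25, adjusted p = 0.0331, edgeR). The striatal call was lost in 5 of 21 alternatives, without any 1 post-symptomatic library or replicate 1 of pre-symptomatic cortex (adjusted p up to 0.263, edgeR). The cortical call was lost in 7 of 21, with library size alone or without any 1 post-symptomatic or pre-symptomatic cortex library (adjusted p up to 0.452, edgeR).

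Cox5b had from 692 to 2638 counts per library. In WT striatum the level was 96.4 CPM at 8 weeks and 100.3 CPM at 13 weeks, and in WT cortex 97.3 and 84.9 CPM. All 4 pre-symptomatic HD libraries were above all 4 WT libraries, and all 4 post-symptomatic HD libraries were below them. In GENCODE M21 on GRCm38, Cox5b is a plus-strand gene of chromosome 1 (36691449 to 36693681) and overlaps no other annotated gene.

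Ndufa12, an accessory subunit of the N module of complex I where NADH is oxidized, was lower at 13 weeks in both genotypes. In HD mice it fell 2.31-fold, a log2 difference of -1.21 (standard error 0.14, adjusted p = 0.00234, edgeR). Its striatal levels were 104 and 143 CPM before and 53.8 and 46.7 CPM after symptom onset, and its cortical levels were 107 and 92.2 CPM before and 47.8 and 42.2 CPM after. In WT striatum it went from 95.8 to 51.0 CPM, and in WT cortex from 108 to 48.5 CPM. The 6 libraries of 8-week mice lay between 92.2 and 143 CPM and the 6 of 13-week mice between 42.2 and 53.8 CPM, with no overlap, and each WT library lay inside the range of the HD libraries of its age.

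For WT mice at 13 against 8 weeks, a comparison added after these values were seen, the log2 difference of Ndufa12 was -1.04 and missed the threshold (standard error 0.19, adjusted p = 0.429, edgeR). With DESeq2 its adjusted p was 0.00849. In that comparison 0 of 93 members passed edgeR's test, 1 had an unadjusted p under 0.05 (all genes 1.82%), and 0.0136% of all genes were called. The difference between the HD and WT age changes of Ndufa12 was -0.19 (standard error 0.23, adjusted p = 0.893, edgeR). Over both genotypes, permuting age inside each region gave an exact two-sided permutation p of 0.005, which is as small as 400 arrangements can give, and p = 0.1 with both regions of a replicate number kept together, the smallest of 20 arrangements. Ndufa12 was picked for this difference and its ages did not overlap, so these permutation values only restate that separation. Age and any difference in when or how the libraries of each age were made cannot be told apart.

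Uqcr11, a small subunit of complex III, was at 148 and 136 CPM before and at 81.4 and 93.3 CPM after symptom onset in HD striatum. Its cortical levels were 126 and 119 CPM before and 77.1 and 86.5 CPM after. Groups did not overlap, and the level fell 1.55-fold, a log2 difference of -0.63 (standard error 0.10, adjusted p = 0.0104, edgeR). The call was lost without replicate 1 of post-symptomatic HD cortex (adjusted p = 0.0562, edgeR) or without replicate 1 of pre-symptomatic HD cortex (adjusted p = 0.0540, edgeR).

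Atp5j2, which encodes subunit f of the membrane part of complex V, was at 391 and 430.3 CPM in striatum and at 336 and 358 CPM in cortex of pre-symptomatic HD mice. After symptom onset it was at 245 and 306 CPM in striatum and at 277 and 257 CPM in cortex. Groups did not overlap, and the log2 difference was -0.47 (standard error 0.11, adjusted p = 0.0407, edgeR). The call was lost under 8 of 17 alternatives, among them 6 that left out 1 library, with an adjusted p of up to 0.148 (edgeR).

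Cox6a2, the heart and skeletal muscle isoform of a complex IV subunit that is also known from parvalbumin interneurons, was at 18.0 and 56.5 CPM in striatum and at 31.1 and 36.9 CPM in cortex before symptom onset. Afterwards it was at 6.52 and 15.2 CPM in striatum and at 12.9 and 7.94 CPM in cortex. The log2 difference was -1.74 (standard error 0.40, adjusted p = 0.0414, edgeR), without overlap within a region, and the call was lost under 8 of 17 alternatives with an adjusted p of up to 0.131. Pvalb, a marker of these interneurons, moved with it in part. Replicate 2 of pre-symptomatic HD striatum, whose tissue markers stood apart, was highest in Cox6a2. It held 437 CPM of Pvalb against 12.9 CPM in replicate 1. HD cortex held 183 and 160.4 CPM before against 85.5 and 75.7 CPM after symptom onset. Other striatal values went apart. Replicate 1 of HD striatum held 12.9 CPM of Pvalb before and 44.5 CPM after onset, while Cox6a2 was lower after onset. Replicate 2 of post-symptomatic HD striatum held 204 CPM of Pvalb against 20.1 CPM in WT striatum, but 15.2 against 17.2 CPM of Cox6a2. The part of this cell type in the Cox6a2 result was not tested.

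Just outside the threshold lay Atp5d, the delta subunit of the complex V catalytic head, with a log2 difference of -0.58 (adjusted p = 0.0501, edgeR), and Ndufs6 of complex I with -0.38 (adjusted p = 0.0512, edgeR). Complex II showed no call. Its membrane anchor Sdhd varied most of the members with a mean of at least 10 CPM, with 252 and 27 counts in the striatum of HD mice after onset and a range from 27 to 822 counts over all libraries.

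**Figure D2:**
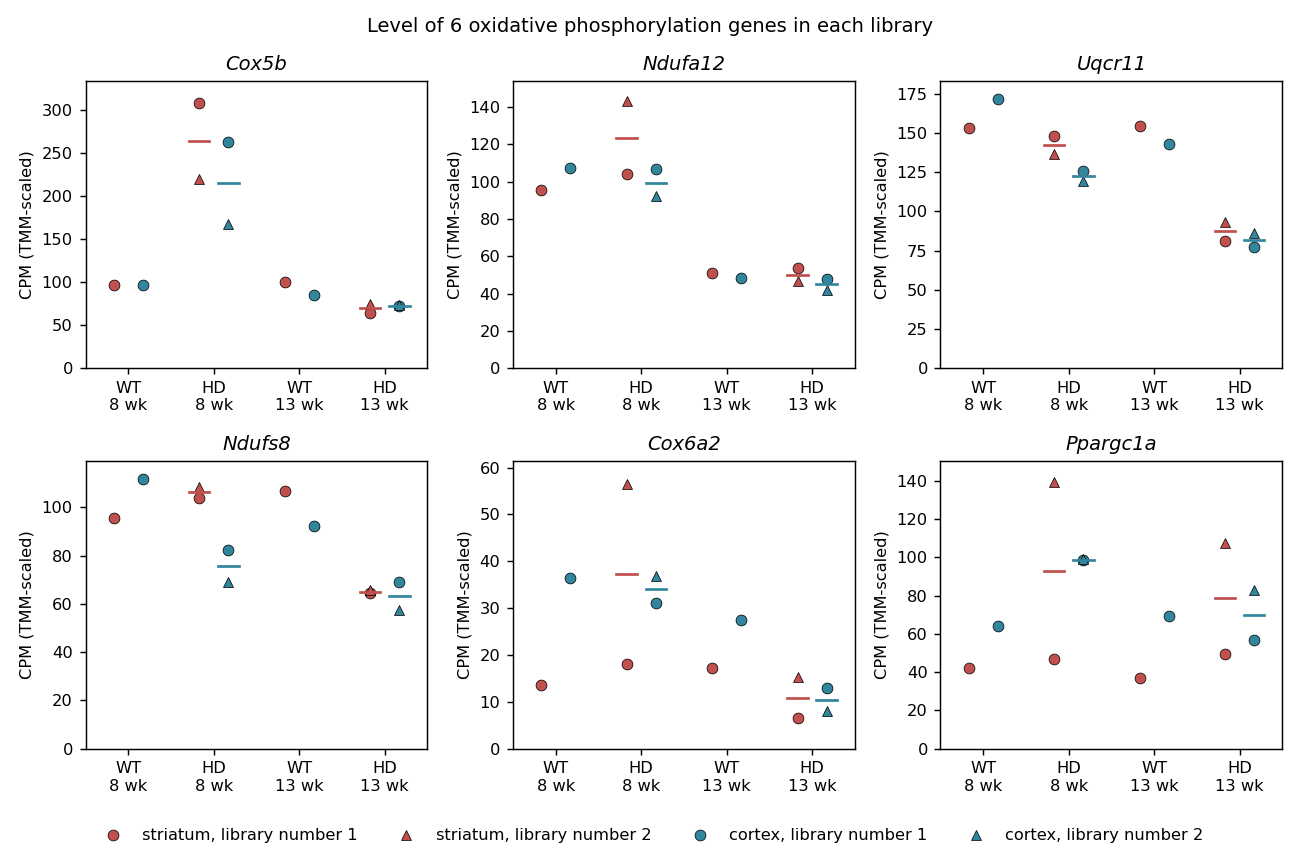
Each point is the level of a gene in 1 library, in CPM scaled by TMM, with striatum in red and cortex in blue, circles for replicate 1, triangles for replicate 2, and lines for the mean of the 2 HD libraries. Cox5b is high only in HD mice at 8 weeks among these groups, Ndufa12 is low in both genotypes at 13 weeks, and Uqcr11 is low in HD mice at 13 weeks.

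The next comparison set post-symptomatic HD mice against age-matched WT mice, using all 12 libraries and a term for region, and asked which members differed once symptoms were present. Uqcr11, Ndufs8, Ndufb7 and Atp5l were lower in HD mice and no member was higher. These 4 were among 93 members tested, beside 7.36% of all 14706 genes that were called, 4.26% called lower and 3.1% called higher. The log2 difference was below 0 in 70 of 93 members and in 48.8% of all genes, and its median was -0.22 for members against 0.01 for all genes. It was below 0 in 32 of 38 complex I genes (median -0.25), 5 of 8 of complex III (-0.29), 14 of 17 of complex IV (-0.20) and 14 of 15 of complex V (-0.30), but in 2 of 4 of complex II (0.00). Of the 7 complex I assembly factors, the log2 difference was above 0 in 6 (median 0.14). Most of these single differences did not pass. Neuron markers moved with this comparison in part. Of 6 general neuron genes (Snap25, Syt1, Rbfox3, Stmn2, Nefl and Tubb3), 2 were called lower in post-symptomatic HD than in WT mice and none higher (median -0.42). The log2 difference was below 0 in 4 of them and above 0 in 2 (up to 0.22). Their summed level was 2056 and 2227 CPM in HD against 2869 CPM in WT striatum. In cortex it was 4413 and 4164 CPM in HD against 5978 CPM in WT mice. Stmn2 (241 and 214 against 159 CPM) and Nefl (157 and 204 against 118 CPM) were higher in HD than in WT striatum. Of 7 striatal neuron genes tested, 4 were called lower and none higher (median -1.68). Their part in the levels of members was not tested. In both regions, both HD libraries were below the WT library for 48 members, against 22.6% of all genes, and above it for 4, against 21.4%.

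Uqcr11 was at 155 CPM in WT striatum and 143 CPM in WT cortex at 13 weeks, above all 4 post-symptomatic HD libraries (77.1 to 93.3 CPM). Its log2 difference was -0.81 (standard error 0.13, adjusted p = 0.00414, edgeR), a 1.76-fold lower level. The call was lost without the WT striatum library of that age (adjusted p = 0.0978, edgeR). Uqcr11 lies on the minus strand of chromosome 10 from 80402997 to 80406830 in GENCODE M21 and overlaps no other annotated gene.

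Ndufs8, an iron-sulfur subunit of the Q module of complex I, was at 64.3 and 65.6 CPM in HD striatum against 107 CPM in WT striatum, and at 69.0 and 57.5 CPM in HD cortex against 92.3 CPM in WT cortex. HD and WT libraries did not overlap, with a log2 difference of -0.63 (standard error 0.16, adjusted p = 0.0377, edgeR). The call was lost under 9 of 22 alternatives.

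Ndufb7, an accessory subunit of the complex I membrane arm, was at 79.0 and 76.5 CPM in HD against 115 CPM in WT striatum, and at 82.4 and 73.3 CPM in HD against 103 CPM in WT cortex. Its log2 difference was -0.49 (standard error 0.12, adjusted p = 0.0336, edgeR), lost under 12 of 22 alternatives. Atp5l, subunit g of complex V, was at 108 and 126 CPM in HD against 167 CPM in WT striatum, and at 109 and 102 CPM in HD against 147 CPM in WT cortex. Its log2 difference was -0.50 (standard error 0.14, adjusted p = 0.0455, edgeR), lost under 13 of 22 alternatives. Atp5l has 2 annotated pseudogenes of its own name and an antisense neighbour, Gm30934, whose reads could have been counted with it. Sdhb, at 245 and 240.1 CPM in HD against 341 CPM in WT striatum and at 257 and 223 CPM in HD against 352 CPM in WT cortex, did not pass (log2 difference -0.52, standard error 0.15, adjusted p = 0.0514, edgeR).

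Within single regions no member passed with all libraries, although 6 members passed in striatum and 2 in cortex when either library of pre-symptomatic HD striatum was left out of the fit of 8 groups. In striatum 0 of 93 members were called by edgeR, 15 had an unadjusted p under 0.05 (all genes 14.5%), and 0.724% of all genes were called. In cortex the count was 0 of 93, with 8 at an unadjusted p under 0.05 (all genes 11.6%) and 0.111% of all genes called. The smallest p belonged to Uqcr11 in both regions, with a log2 difference of -0.83 in striatum (standard error 0.19, adjusted p = 0.0815, edgeR) and -0.81 in cortex (standard error 0.19, adjusted p = 0.159, edgeR). In striatum the next decrease was Ndufs8 at -0.72, which did not pass (adjusted p = 0.145, edgeR). Among increases that did not pass, Ppargc1a was at 1.08 and the assembly factor Ndufaf1 at 0.64 in striatum, and the assembly factor Ndufaf6 at 0.63 and the iron-sulfur subunit Ndufv2 at 0.34 in cortex.

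**Figure D3:**
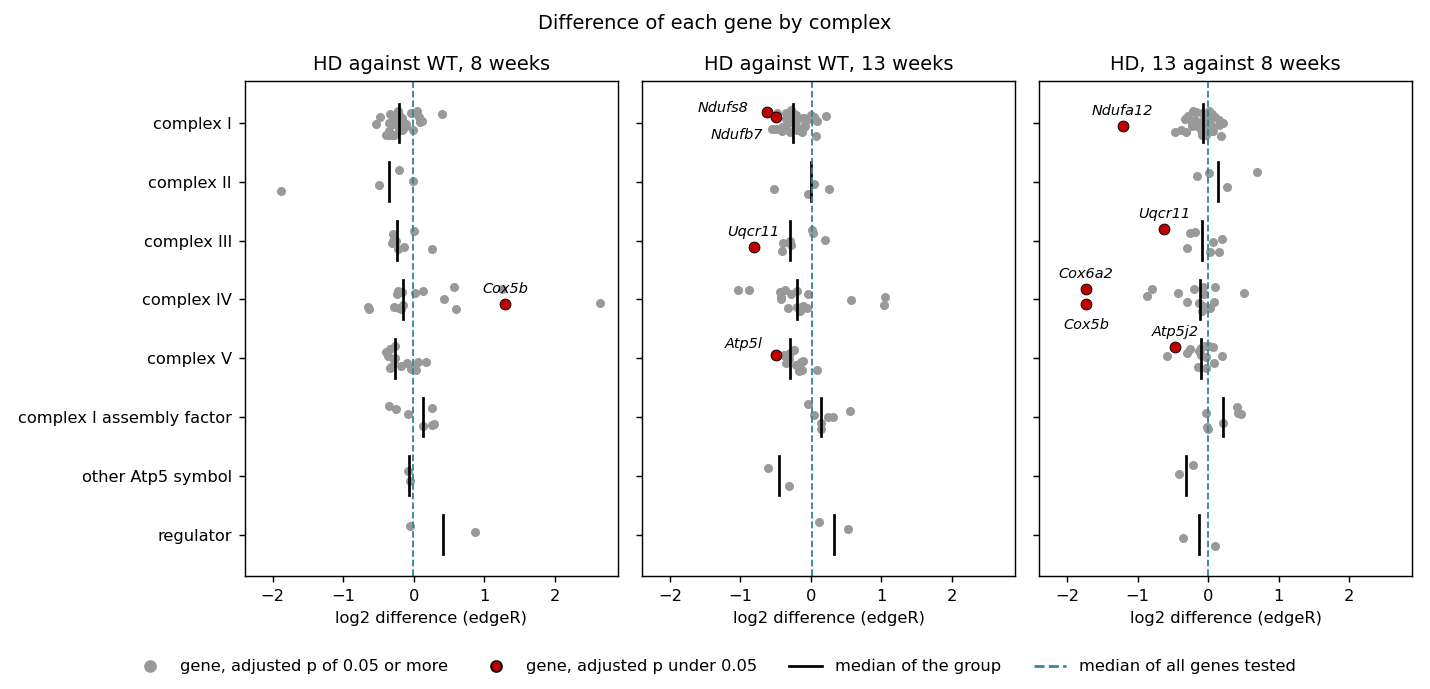
Each point is the log2 difference of 1 gene by edgeR in the comparison named above each panel, with genes on rows by complex, calls in red and labelled, black bars for the median of each row and a dashed line for the median of all genes tested. In HD against WT mice at 13 weeks the medians of complexes I, III, IV and V lie between -0.30 and -0.20, left of the dashed line at 0.01.

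Summed over its 38 genes, complex I held 5411 ± 589 CPM in post-symptomatic HD striatum (SD, n = 2) against 6346 CPM in WT striatum, and 5249 ± 1.81 CPM in HD cortex (SD, n = 2) against 5971 CPM in WT cortex. These sums were 85.3% and 87.9% of WT. The corresponding shares were 83.6% and 86.4% for complex II, 88.0% and 87.3% for complex III, 86.0% and 85.1% for complex IV and 84.1% and 89.1% for complex V. Complex I assembly factors stood at 108% in striatum and 112% in cortex. The replicates of post-symptomatic HD striatum differed most for complex IV, with 3388 CPM in replicate 1 and 4597 CPM in replicate 2 against 4640 CPM in WT striatum, while complex II stood at 632 and 607 CPM against 741 CPM.

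These shares depend on the scale. As plain CPM they lay between 88.6% and 94.8% for the 5 complexes at 13 weeks, and as CPM with Rn45s left out of the library size, without TMM, between 97.3% and 103%. On that last scale the median of all genes in HD striatum was 118% and in HD cortex 115% of WT, against 101% and 100.4% with TMM. Relative to the median of all genes, the median of members was lower by 0.27 in striatum and 0.16 in cortex on the log2 scale with TMM, and by 0.28 and 0.16 with Rn45s left out.

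**Figure D4:**
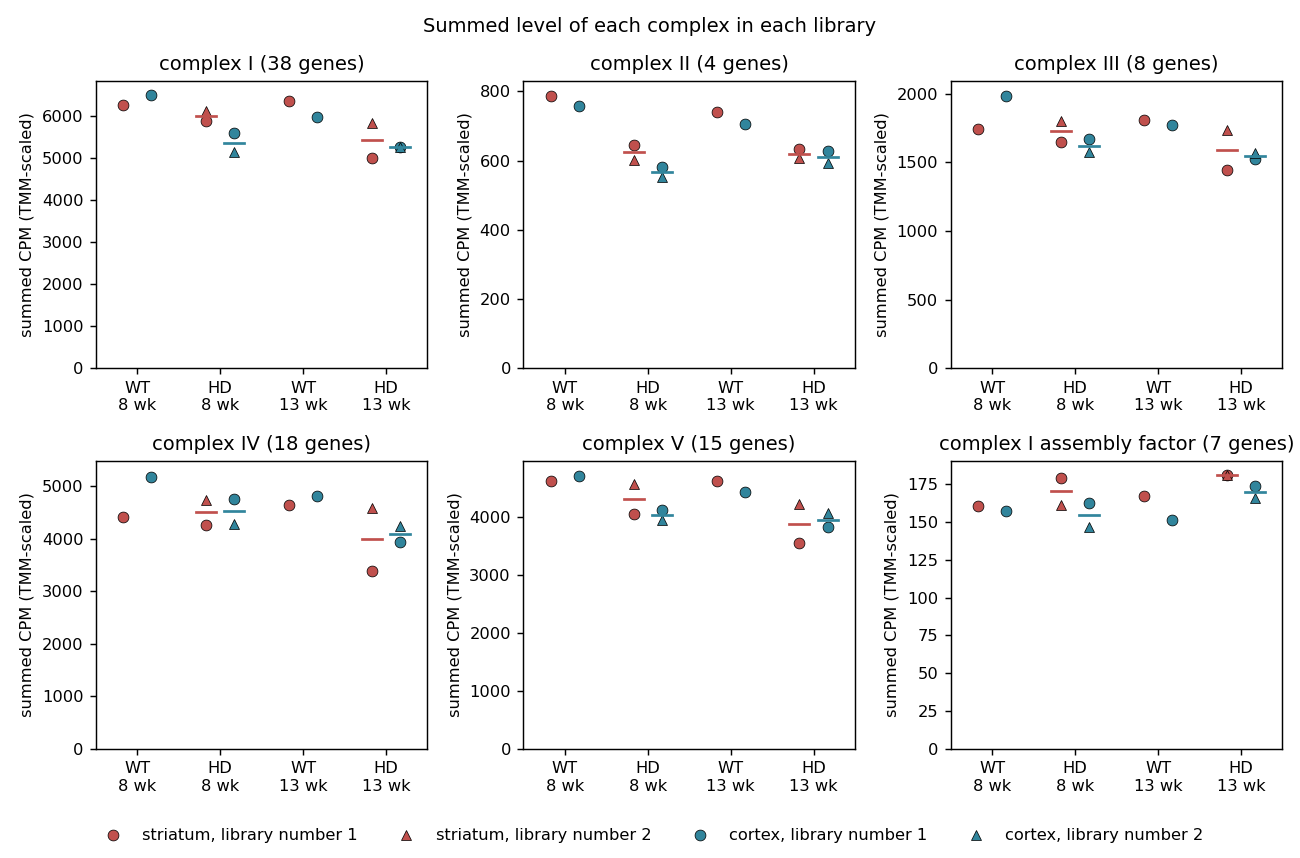
Each point is the summed level of the genes of a complex in 1 library, in CPM scaled by TMM, with symbols as in the plot of single genes and lines for the mean of the 2 HD libraries. Sums of complex II in HD libraries lie below those of WT libraries at both ages, while sums of complex IV in striatum overlap at 8 weeks.

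The same fit set pre-symptomatic HD mice against 8-week WT littermates, to ask which members differed before symptom onset. Cox5b was higher in HD mice by 2.47-fold, a log2 difference of 1.30 (standard error 0.21, adjusted p = 0.00945, edgeR), and was the only member called. It was 1 of 93 tested, beside 2.1% of all genes that were called, 1.95% called higher and 0.15% called lower. Without the WT striatum library of 8 weeks its adjusted p was 0.156 and without the WT cortex library 0.0534 (edgeR). The median log2 difference was -0.18 for members against -0.01 for all genes, and it was below 0 in 70 of 93 members and in 51.2% of all genes. Complex II had the lowest median (-0.35), with Sdhb at -0.49 (adjusted p = 0.138, edgeR). Both HD libraries were below the WT library in both regions for 25 members, against 15.1% of all genes, and above it for 7, against 15.4%. Without replicate 2 of pre-symptomatic HD striatum, the library that stood apart, 42 members were below, against 22.8% of all genes. Summed levels of all 94 members were 96.7% of WT in striatum and 84.7% in cortex with TMM, and 86.9% and 77.7% as plain CPM. With TMM the HD striatum sums were 16786 CPM in replicate 1 and 18223 CPM in replicate 2, against 18109 CPM in WT striatum.

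The HD age change differed from the WT age change for Cox5b alone among members, with a log2 difference of -1.68 (standard error 0.28, adjusted p = 0.0490, edgeR). This was 1 of 93 members, beside 0.116% of all genes. The call was lost under 15 of 22 alternatives, among them each that left out 1 library other than a replicate 2 library of pre-symptomatic HD mice, and with sex as a term, where the log2 difference was -1.88 (adjusted p = 0.0647, edgeR). The WT mice differed in sex between the ages. No member passed edgeR's test for a change after symptom onset that differed between striatum and cortex (0 of 93, 1 at an unadjusted p under 0.05 against 3.4% of all genes, with 0.0% of all genes called). Ndufb10 of the complex I membrane arm had the smallest unadjusted p among decreases apart from Cox8b (log2 difference -0.48, standard error 0.23, unadjusted p = 0.0609 across all genes by edgeR), and Ndufa8 and Ndufaf2 had the smallest among increases (0.27 and 0.32). Cox8b had between 0 and 36 counts per library, so no fold is given. In striatum alone, 2 of 93 members were called after symptom onset, Cox5b and Ndufa12, beside 0.319% of all genes, and in cortex the same 2 members were called, beside 0.593%. The log2 difference of Ndufa12 was -1.30 in striatum (standard error 0.20, adjusted p = 0.0426, edgeR) and -1.15 in cortex (standard error 0.20, adjusted p = 0.0480, edgeR), each lost in 10 of 21 alternatives.

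Striatum and cortex held members at like levels over all 12 libraries. Of 93 members, 1 was called higher and 1 lower in striatum, beside 20.6% of all genes called, 8.51% higher and 12.1% lower. Cox8a was lower in striatum (569.8 to 797 CPM, median 726 CPM of 6 libraries) than in cortex (807 to 1057 CPM, median 924 CPM of 6). Its regions did not overlap, which held for 1 member against 5.09% of all genes, and for 0 members that were higher in striatum against 2.67%. Its log2 difference was -0.38 (standard error 0.10, adjusted p = 0.0165, edgeR), lost without replicate 1 of pre-symptomatic HD cortex (adjusted p = 0.0507, edgeR) or without the WT cortex library of 8 weeks (adjusted p = 0.0509, edgeR). Ndufa3, a membrane arm subunit of complex I, was higher in striatum (146 to 184 CPM, median 163 CPM) than in cortex (125 to 151 CPM, median 129 CPM), with overlap and a log2 difference of 0.27 (standard error 0.08, adjusted p = 0.0371, edgeR), lost under 8 of 22 alternatives. The median log2 difference of members was 0.04, against 0.01 for all genes.

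Ppargc1a encodes PGC-1alpha, a coactivator that drives transcription of mitochondrial genes. It was at 42.1 CPM in WT and at 46.8 and 139 CPM in HD striatum at 8 weeks, and at 37.0 CPM in WT and at 49.6 and 108 CPM in HD striatum at 13 weeks. In cortex it was at 64.2 CPM in WT and 98.5 and 99.0 CPM in HD mice at 8 weeks, and at 69.2 CPM in WT and 56.9 and 83.1 CPM in HD mice at 13 weeks. The 2 highest levels were those of replicate 2 in HD striatum at each age, with 437 and 204 CPM of Pvalb. The other 4 striatal libraries had 12.4 to 44.5 CPM of it. Of these, replicate 2 at 8 weeks is the library whose tissue markers stood apart. At 8 weeks WT cortex held more Pvalb (213 CPM) than HD cortex (183 and 160.4 CPM) but less Ppargc1a. At 13 weeks WT cortex held 208 CPM of Pvalb against 85.5 and 75.7 CPM in HD cortex. The Ppargc1a levels of those HD libraries lay on either side of that of WT cortex. The part of cells with Pvalb in the level of Ppargc1a was not tested. No comparison called it. The log2 difference was 0.87 in pre-symptomatic HD against WT mice (adjusted p = 0.446, edgeR), 0.52 at 13 weeks (adjusted p = 0.557, edgeR) and -0.36 between the HD ages (adjusted p = 0.622, edgeR). The annotated genes Gm42614, Gm42615 and Gm43605 overlap it on the same strand. Tfam, which packages mitochondrial DNA and takes part in its transcription, lay between 22.4 and 35.5 CPM in all libraries, with log2 differences between -0.05 and 0.12 in those comparisons, none of which passed.

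Subunits of complex IV with tissue isoforms were read mostly from the ubiquitous form. Cox4i2, the isoform of Cox4i1 induced at low oxygen, took between 0.0423% and 0.460% of the counts of the pair. For Cox6b2, the testis form of Cox6b1, the range was 0.277% to 1.78%, for Cox7a1, the heart form of Cox7a2, 0.285% to 1.38%, and for Cox8b, the heart form of Cox8a, 0.0% to 0.368%. Cox6a2 took the largest share, 0.987% to 6.51% of the counts of Cox6a1 and Cox6a2. This share was 4.14% and 5.34% in pre-symptomatic and 1.83% and 0.987% in post-symptomatic HD cortex, against 3.88% and 3.10% in WT cortex at 8 and 13 weeks. Of the main forms, Cox4i1, Cox6a1, Cox6b1 and Cox7a2 were called in none of the comparisons, and their levels after symptom onset overlapped those before it in at least 1 region, except Cox7a2 (log2 difference -0.29, adjusted p = 0.143, edgeR).

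**Figure D5:**
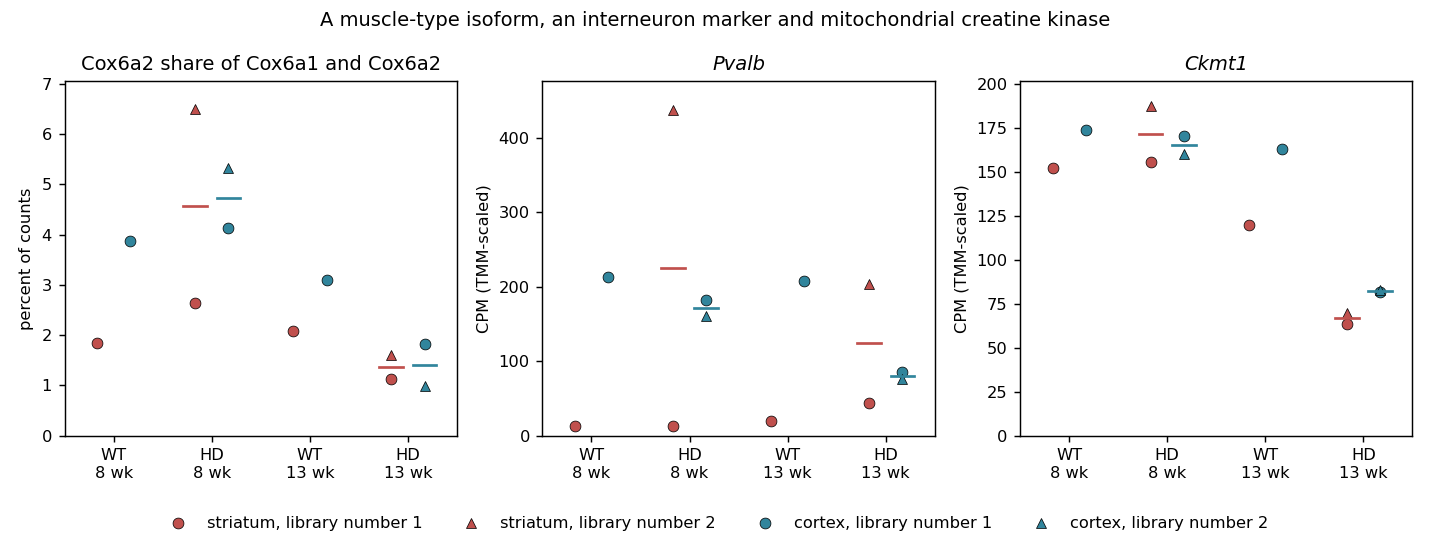
Points show, for each library, the percent of Cox6a1 and Cox6a2 counts taken by Cox6a2, the level of the interneuron marker Pvalb and the level of Ckmt1 in CPM, with symbols as in the plot of single genes. Replicate 2 of HD striatum at 8 weeks, whose tissue markers stood apart, is highest in the first and second panels. Ckmt1 in HD mice at 13 weeks (63.6 to 82.9 CPM) lies below all other libraries.

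Other genes of energy metabolism were read as lists. In a list of 9 carriers and creatine kinases, 2 were called lower after symptom onset in HD mice and none higher (all genes 6.45% called), and 3 were called lower and none higher in post-symptomatic HD against WT mice (all genes 7.36%). Ckmt1, mitochondrial creatine kinase, which passes the phosphate of ATP to creatine, was at 155 and 188 CPM before and 63.6 and 69.6 CPM after symptom onset in HD striatum, and at 170.0 and 159.9 CPM before and 81.4 and 82.9 CPM after in HD cortex. All post-symptomatic HD libraries lay below the others, with a log2 difference of -1.17 between HD ages (standard error 0.12, adjusted p = 0.00153, edgeR) and -0.92 between 13-week HD and WT mice (standard error 0.14, adjusted p = 0.00363, edgeR). Ckb, the cytosolic brain form, had log2 differences of -0.78 (adjusted p = 0.00568, edgeR) and -0.82 (adjusted p = 0.00779, edgeR), and Slc25a3, the phosphate carrier that supplies complex V, one of -0.55 against WT mice (adjusted p = 0.0235, edgeR).

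Of 37 other assembly factors, 0 were called by edgeR between HD ages (4 at an unadjusted p under 0.05), beside 6.45% of all genes called. In post-symptomatic HD against WT mice 1 was called, beside 7.36% of all genes. It was Atpif1, the inhibitor of ATP hydrolysis by complex V, which was lower in HD mice (log2 difference -0.50, adjusted p = 0.0342, edgeR). Of 17 genes of pyruvate dehydrogenase and the citric acid cycle and of 10 listed regulators of mitochondrial biogenesis such as Nrf1 and Esrra, edgeR called 0 in either comparison. Between HD ages 2 and 1 had an unadjusted p under 0.05, and against WT mice at 13 weeks 3 and 2 did. The share of all genes under that unadjusted threshold is not given here for these comparisons, so the unadjusted counts are not set against it. The median log2 difference in post-symptomatic HD against WT mice was -0.24 for the assembly factors, -0.19 for the citric acid cycle list, -0.05 for the regulators and -0.32 for the carriers and creatine kinases, against 0.01 for all genes. Between striatum and cortex, Cox20 (0.45, adjusted p = 0.00801) and Suclg1 (0.24, adjusted p = 0.0420) were higher and Acad9 (-0.57, adjusted p = 0.0285) and Pdha1 (-0.30, adjusted p = 0.0321) lower in striatum by edgeR.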

How the data were processed

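The authors deposited raw counts per gene symbol for each library, without normalization. The submitters' processing notes name Bowtie2, bedtools and the mouse build mm10. Versions and the counting rule are not given in the sources used here. The deposited counts were tested with edgeR 4.0.16 under R 4.3.3, using TMM factors, filterByExpr (minimum count 10) and the robust form of its quasi-likelihood test, and p-values were adjusted by Benjamini-Hochberg with a threshold of 0.05. Of 94 members, 92 passed the filter in the fit of HD libraries and 93 in fits of all 12 libraries. The members and lists were chosen with earlier results of these data known. Genes were placed in GENCODE M21 on GRCm38, where 41 members overlap another annotated gene, 13 of them on the same strand, and 5 have pseudogenes of their own name. Strand use in counting is not given.

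Named genes were Cox5b, Ppargc1a, Tfam, the isoform pairs of complex IV, the highest member of each complex, and per comparison up to 6 increases and 6 decreases among calls or, with none, up to 2 each by smallest unadjusted p. From each other list, up to 3 genes per comparison with the smallest adjusted p were eligible. Sdhd, Atp5d, Ndufs6 and Pvalb were named after their values were seen.

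Alternatives were DESeq2 1.42.0, upper-quartile factors, library size alone, no filter, a floor of 1 CPM for every library, Rn45s left out, removing the GC trend, a replicate block, voom (limma 3.58.1) with the mouse as a random effect, sex as a term (in the fit of 12 libraries with region as a term), and leaving out each library. The comparison of WT ages, the permutation tests, and the medians relative to all genes were added after the data were seen. Replicate numbers were not treated as pairs, because the deviations of same-numbered libraries did not correlate above 0.1 in every pair. Between regions of a stage the correlation was 0.166 in post-symptomatic and 0.099 in pre-symptomatic mice. Between stages, which hold mice of different ages, it was 0.002 to 0.185. The fits treat both regions as independent. No pair of replicates was 1 library deposited 2 times, since chi-square over genes was 7.23 to 78.2 times its degrees of freedom. Methods were tested on simulated data. The single values of 1 member are not reported here, although it is included in counts, medians and sums. Intervals from counts would cover counting error only, since the tables hold no molecular identifiers.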

Additional observations from a re-analysis of the deposited data

Results flagged for a closer look

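The age change of Cox5b differed between HD and WT mice by a log2 difference of -1.6751 in the test of the difference itself, and that call was lost under 15 of 22 alternatives.

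For 10 further values, both HD libraries of one region lay above and both of the other region below their WT library, a pattern held by 8 of 93 members tested and 14.5% of all genes at 13 weeks, and by 22 of 93 members and 19.1% of all genes at 8 weeks. The values are those of genes named by rule. Each is given as the log2 ratio of HD to WT mice in striatum less that in cortex, and these differences were not tested. At 13 weeks the values were -2.493 for Cox4i2, 1.1242 for Cox7a1 and -0.40991 for Tfam. At 8 weeks they were 2.5242 for Cox7a1, 0.71311 for Ndufs8, 0.57542 for Atp5j2, 0.48194 for Ndufa12, 0.31262 for Ndufa3, -0.43568 for Ndufaf1 and -0.43851 for Tfam. Cox4i2 had between 2 and 21 counts and Cox7a1 between 13 and 60 counts per library. Replicate 2 of pre-symptomatic HD striatum, whose tissue markers stood apart, enters all the 8-week values.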

How the results depend on the processing

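No member that was called in a comparison changed direction under any alternative run, while the number called varied. Of 230 alternatives for these counts, 151 stayed within 1.5 times. The share of all genes called under each alternative is not given here, so the counts under alternatives are not set against it. After against before symptom onset in HD mice, 5 members became 9 with DESeq2. In post-symptomatic HD against WT mice, 4 became 2 with upper-quartile factors, 1 with library size alone, 2 without a filter, 9 with DESeq2 and 2 with the replicate block. In pre-symptomatic HD against WT mice, 1 became 3 with library size alone. For the HD less WT age change, 1 became 0 with upper-quartile factors, library size alone, Rn45s left out, the GC trend removed or sex as a term. Between regions, 2 became 5 with library size alone, 1 without a filter and 4 with the GC trend removed. After onset in striatum, 2 became 1 with upper-quartile factors, library size alone, at least 1 CPM in every library or Rn45s left out. In cortex, 2 became 1 with upper-quartile factors or the GC trend removed and 0 with library size alone. With DESeq2, 0 became 1 for post-symptomatic HD against WT striatum and for WT mice between ages. Summed levels of the complexes in HD groups moved by at least 1 SD in 29 cases. Plain CPM and CPM with Rn45s left out of the library size were the only alternatives tried for these sums. The cause of these changes was not tested.

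No alternative gave a call for a change after onset that differed between regions (0 in each). Leaving out 1 library at a time gave 2 to 7 members after against before onset in HD mice, 0 to 9 in post-symptomatic HD against WT mice, 0 to 2 in pre-symptomatic HD against WT mice, 0 to 1 for the HD less WT age change and 0 to 3 between regions. The range was 0 to 8 in striatum and 0 to 5 in cortex after onset, 0 to 6 in striatum and 0 to 2 in cortex against WT mice at 13 weeks, and 0 to 1 in WT mice between ages. After against before onset the count was 2 or 3 when any 1 post-symptomatic library or any 1 pre-symptomatic cortex library was left out. In post-symptomatic HD against WT mice the count was 1 without replicate 1 of post-symptomatic HD striatum or of pre-symptomatic HD cortex. It was 2 without replicate 2 of any HD group but pre-symptomatic striatum, and 9 when that library was left out. Without either WT library of 13 weeks, only 1 WT library of that age was left, and the count fell too. Where an arm was left with 1 library, it was assumed to vary like the others.

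Whether same-numbered libraries of both regions came from the same mouse is not given. They matched in sex in each group, and their deviations correlated at 0.166 in post-symptomatic and 0.099 in pre-symptomatic mice, so pairing was neither shown nor excluded and the replicate block was kept as an alternative. With the replicate block, 6 members were called after against before onset in HD mice. With 2 HD libraries and 1 WT library per region and age, depth limited the genes under 10 CPM, and the number of WT mice limited every comparison with them.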
